A study of Mus musculus with 20 samples.

Results

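MicroRNAs (miRNAs) of the ascending aorta were compared between mice on a high fat diet at week 6 and mice on chow at week 0. The 5 arrays concerned were chosen by their titles, 3 at week 6 on the high fat diet and 2 at week 0, of 20 arrays in the whole series. All mice of the series were male and, by the labels, double knockout with the genotype Apobtm2Sgy/Ldltm1Her, so the week 0 controls carry the same alleles. The tissue is given as ascending aorta with atherosclerotic lesion, also for week 0, and the age tag repeats the diet week (0W or 6W), so the mice at week 6 were also older. No label says whether 2 arrays of a group came from separate mice or from pooled ones, and p-values therefore measure the spread between these samples, which may be technical. The 3 arrays at week 6 on chow, from mice of the same genotype, are given beside many of the results. They set the diet beside the passing of 6 weeks. Fewer cells of a type and less miRNA per cell cannot be told apart in RNA from a whole piece of tissue.

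A miRNA is a short RNA that guides the Argonaute protein to messenger RNAs, mostly by pairing of its seed (bases 2 to 8), and lowers their output. Many miRNAs are made mainly in 1 kind of cell, so that miR-143 and miR-145 mark smooth muscle, miR-126 endothelium, miR-142 blood-derived cells, miR-1 and miR-133 heart and skeletal muscle, and the miR-200 family epithelium. In an artery that takes up lipid the wall's smooth muscle and endothelium are joined by macrophages and lymphocytes, and miR-155, miR-146a and miR-21 are the miRNAs most often named in that setting.

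The following mature sequences, from RefSeq (build GRCm38.p6), are those of selected miRNAs named below, some with wide gaps between the 2 groups or between the high fat arrays. Capitals mark the seed. The first set holds muscle miRNAs, of which miR-206 and miR-133b come from 1 long noncoding transcript.
miR-206-3p: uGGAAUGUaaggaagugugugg
miR-133b-3p: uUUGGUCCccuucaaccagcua
miR-499-3p: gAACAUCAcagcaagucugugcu
The second set is the miR-200 family, which falls into 2 seed groups.
miR-200a-3p: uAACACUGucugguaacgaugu
miR-141-3p: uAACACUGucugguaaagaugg
miR-200b-3p: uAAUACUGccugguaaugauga
miR-200c-3p: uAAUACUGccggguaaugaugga
miR-429-3p: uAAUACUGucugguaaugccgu
The third set shares the seed of miR-34, and its members are abundant in cells with motile cilia.
miR-34b-5p: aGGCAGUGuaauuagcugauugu
miR-449a-5p: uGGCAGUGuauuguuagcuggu
The last sequences belong to miRNAs with the smallest p in either direction and to those whose course differed from that on chow.
miR-7015-5p: uCUGUGCAguaggcuguggguuc
miR-219a-5p: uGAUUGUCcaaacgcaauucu
miR-31-5p: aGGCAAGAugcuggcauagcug
miR-140-3p: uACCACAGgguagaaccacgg
miR-23a-3p: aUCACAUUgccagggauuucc
miR-128-3p: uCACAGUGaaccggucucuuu
miR-181b-5p: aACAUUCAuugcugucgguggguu

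The number of mature miRNAs detected was 425 and 412 on the week 0 arrays, 654, 588 and 345 on high fat replicates 1, 2 and 3, and 489 to 595 on the week 6 chow arrays. High fat replicate 3 stood apart from the other arrays of its slide. The median signal of its bright corner controls was 29.2 against 482 to 884 on the other arrays of the slide, its 75th percentile before scaling was 357 against 448 to 1136, and its background limit after scaling was 4.21 on the log2 scale against 2.34 to 3.75. All 8 arrays of weeks 0 and 6 lay on 1 slide. Both week 0 arrays lay in row 1 and all 3 high fat arrays in row 2. Row and group can be told apart only through the chow arrays. Of these, replicates 1 and 2 lay in row 1 and replicate 3 alone in row 2. The row effect in every value given with the slide row as a block therefore rests on that 1 array, set against chow replicates 1 and 2. Over the 192 miRNAs detected on every array of the series, the SD of the log2 difference was 0.747 between the week 0 arrays and 0.953 to 1.30 between pairs of high fat arrays, against 0.695 to 1.43 between a week 0 and a high fat array. Pairs within the high fat group thus lay as far apart as pairs across the 2 groups. Week 6 chow replicates 1 and 2 were nearly identical, and averaging them left the count of called miRNAs at 0.

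**Figure D1:**
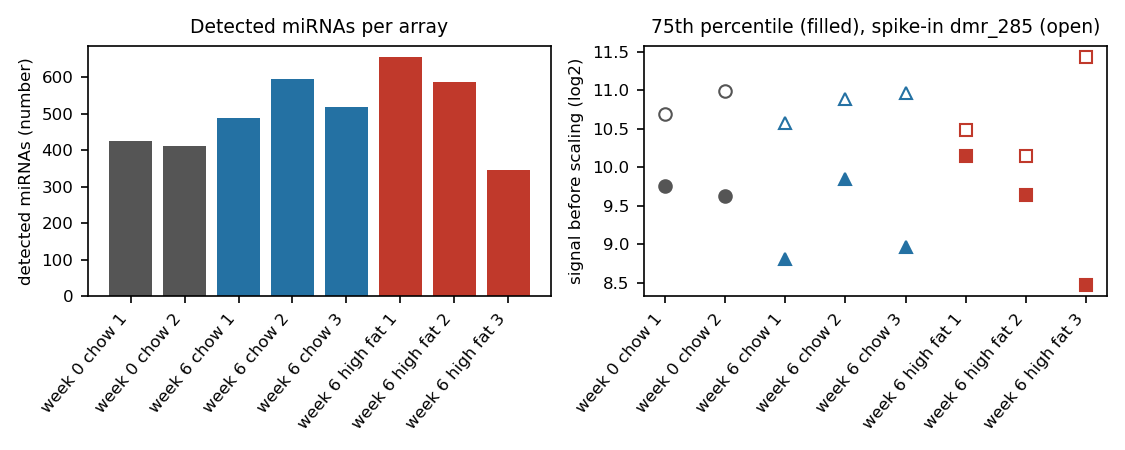
Left, number of detected mature miRNAs on each of the 8 arrays of weeks 0 and 6 (bars, 1 array each). Right, 75th percentile of the miRNA signal before scaling (filled symbols, log2) and labelling spike-in dmr_285 (open symbols, log2) on the same arrays. High fat replicate 3 had the fewest detected miRNAs (345), the lowest 75th percentile and the highest spike-in signal.

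The comparison of week 6 on the high fat diet with week 0 asked how the aorta's miRNAs differed over the first 6 weeks of feeding. No miRNA passed the test. Limma's moderated test with Benjamini-Hochberg adjustment at 0.05 called 0 of 609 tested miRNAs (0%), with a smallest adjusted p of 0.530. At an unadjusted p under 0.05 there were 46 miRNAs (7.55%), 45 with a positive difference (7.39%) and 1 with a negative one (0.164%). In 76 miRNAs (12.5%) all 3 high fat values lay above both week 0 values, and in 30 (4.93%) all 3 lay below both. Some of the 76 rest on a replicate 3 value below that array's own background limit, as in let-7d-3p (3.27 against 4.21). Differences are given as the high fat mean minus the week 0 mean of log2 scaled signal, so that each whole unit stands for a doubling.

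The differences leaned one way. They were positive in 461 of 609 miRNAs (75.7%) and negative in 142, with a median of 0.49, and they ran from -1.34 to 3.94. Of the 609, 163 were detected on neither week 0 array. The week 0 arrays held 170 and 177 tested miRNAs at the floor, and high fat replicates 1, 2 and 3 held 28, 57 and 160. A miRNA at the floor on both week 0 arrays cannot have a negative difference. With only the 303 miRNAs detected on all 5 arrays the median was 0.19. The lean also depends on the scaling. The median was -0.30 when the 75th percentile was taken over all miRNAs and -0.13 after quantile normalisation. Differences below are therefore to be read against the median of 0.49 and these limits. The lean was small among bright miRNAs, with a median of 0.05 in the brightest 152 against 0.93 in the 152 of the second lowest level class, of 4 classes of near equal size. The SD within a group was 0.818 at the median over the tested miRNAs in the high fat group, 0.175 at week 0 and 0.292 at week 6 on chow. The many values at the floor lower the week 0 SD, so 0.175 does not by itself show a tighter group. The median standard error of a difference was 0.679, about the same as the median size of a difference, 0.592.

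**Figure D2:**
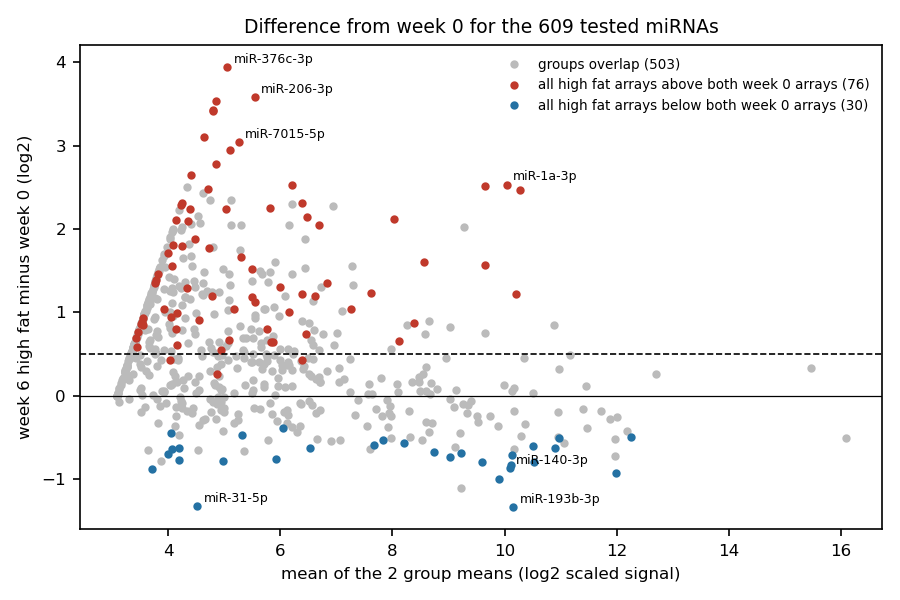
Difference between the week 6 high fat mean (n = 3) and the week 0 mean (n = 2) of log2 scaled signal against the mean of both group means, 1 point per tested miRNA. Red and blue points have groups that do not overlap, the dashed line is the median difference (0.49), and the straight diagonal edge at the left is formed by miRNAs whose week 0 values are at the floor of 3.09.

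Leaving out high fat replicate 3 changed the count only together with a smaller set of arrays. Without it, with all other arrays kept, the fit called 0 miRNAs and gave 128 at an unadjusted p under 0.05 and a smallest adjusted p of 0.0764. Without it and with slide 1 alone, limma called 93 of the 609 miRNAs (15.3%), 92 higher (15.1%) and 1 lower (0.164%). Without the 4 arrays of the series that had the fewest detected miRNAs, of which it is 1, limma called 99 (16.3%), 98 higher (16.1%) and 1 lower. The 2 fits shared 82 miRNAs, and the lower one in both was miR-31-5p. Of the 93, 57 were detected on neither week 0 array, against 163 of all 609. In 18 of the 92 higher ones the value of replicate 3, which the fit had left out, lay above both week 0 values. Among all 609, all 3 high fat values lay above both in 76 (12.5%), a stricter count that is no background for the 18. The share of all 609 with replicate 3 alone above both was not counted. A replicate 3 value above week 0 can still lie below that array's background limit of 4.21, so the 18 are not separate support.

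Among the miRNAs with a positive difference the smallest p values belonged to miR-6923-3p, miR-7015-5p, miR-219a-5p, miR-206-3p and miR-376c-3p. miR-6923-3p, whose gene lies within Myh3, the gene of embryonic skeletal myosin, had log2 signals of 3.46 and 3.09 at week 0 and 5.71, 6.86 and 3.95 in the high fat arrays. All high fat values were above both week 0 values, but that of replicate 3 was the lowest and lay below that array's own background limit of 4.21. The difference was 2.24 (SE 0.78; limma adjusted p = 0.530), and it was 3.01 without replicate 3 (adjusted p = 0.0764). miR-7015-5p, whose gene lies within Smap2, had 3.38 and 4.10 at week 0 and 7.47, 6.13 and 6.77 in the high fat arrays. Here replicate 3 stood among the others, and the difference was 3.04 (SE 1.12, 95% confidence interval 0.68 to 5.40, adjusted p = 0.530). It was 0.71 with the slide row as a block and 1.39 with normexp background correction. On chow at week 6 the same miRNA had 4.60, 4.44 and 6.86.

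miR-219a-5p, a miRNA of brain and oligodendrocytes, gave 3.71 and 3.09 at week 0 and 3.67, 5.11 and 5.62 on the high fat diet. The groups overlapped through high fat replicate 1, and the difference was 1.40 (SE 0.52, adjusted p = 0.530). miR-376c-3p, of the imprinted Dlk1-Dio3 cluster (probe target at mm9 chromosome 12, 110960981 to 110961000), was at the floor of 3.09 on both week 0 arrays and had 7.98, 8.17 and 4.93 in the high fat arrays. It was not well above background on either week 0 array and was detected on all 3 high fat arrays, and its signal was at least 9.35-fold higher there (adjusted p = 0.530). An "at least" value sets the high fat mean against the lowest signal that counted as detected on each week 0 array, or the miRNA's own value where that was higher. The fitted difference was 3.94 (SE 1.48), the largest of the 609. On chow it had 8.69, 7.89 and 8.88 at week 6, and the values of the 2 diets overlapped.

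On the negative side the smallest p was that of miR-31-5p (probe target at mm9 chromosome 4, 88556494 to 88556509), listed here with the epithelial miRNAs. It had 4.70 and 5.68 at week 0 and 3.09, 3.84 and 4.64 in the high fat arrays, so that the groups did not overlap but were only narrowly apart at high fat replicate 3. The difference was -1.33 (SE 0.53, 95% confidence interval -2.46 to -0.20, adjusted p = 0.530), and with normexp it was -0.25. miR-140-3p, made from an intron of Wwp2 and best known from cartilage, had 10.63 and 10.43 at week 0 and 9.48, 9.82 and 9.69 on the high fat diet. Its 3 high fat values were close together and all below week 0, with a difference of -0.87 (SE 0.46, adjusted p = 0.530). On chow the same miRNA had 9.56, 9.64 and 9.33 at week 6, and the diets differed by 0.15 (SE 0.41, adjusted p = 0.980). miR-28c, from within Samd12, was dim on all arrays, at 4.29 and 4.40 against 3.24, 3.95 and 3.73, a difference of -0.70 (SE 0.36, adjusted p = 0.530).

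**Figure D3:**
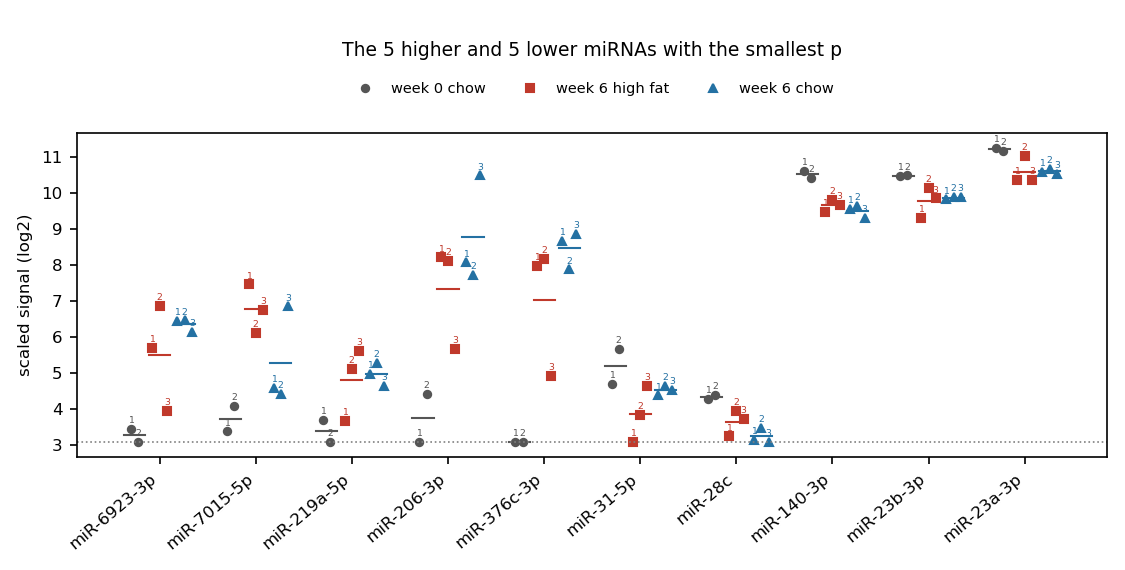
Log2 scaled signal on each array of the 5 miRNAs with the smallest p among positive and the 5 among negative differences, by group; small numerals are replicate numbers, bars are group means and the dotted line is the floor of 3.09. None passed limma's test (adjusted p = 0.530 for each). miR-376c-3p is at the floor on both week 0 arrays, and the 3 bright miRNAs at the right lie lower on every high fat array than on either week 0 array.

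The list of heart and skeletal muscle miRNAs, 1 of 26 lists of cell types and families, had 6 tested members of 12 on the array. All 6 differences were positive (background 75.7%), with a median of 2.49 against 0.49 over all tested miRNAs. Of the 6, 5 had groups that did not overlap (background 12.5%), and 0 passed limma's test. The list's mean was 5.13 and 7.22 at week 0, 8.89, 9.14 and 7.74 on the high fat diet and 7.43, 7.49 and 8.62 at week 6 on chow. The week 0 arrays were far apart, and the higher of them lay just below the lowest array of either diet. The median stayed positive under all alternatives run, between 1.06 without week 0 replicate 1 and 4.04 without week 0 replicate 2. With the slide row as a block it was 1.31, and chow replicate 3, which lay in the row of the high fat arrays, was the highest chow array.

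miR-1a-3p, which represses genes of the undifferentiated state in heart and skeletal muscle, had 7.29 and 10.25 at week 0 and 11.54, 11.90 and 10.47 on the high fat diet. The difference was 2.53 (SE 1.42, adjusted p = 0.530), and its 95% confidence interval ran from -0.47 to 5.53. miR-133a-3p, made from the same transcripts, had 6.79 and 9.98 at week 0 and 10.90, 11.16 and 10.64 on the high fat diet. Its high fat values were close to each other while its week 0 values were far apart, and the difference was 2.51 (SE 1.13, adjusted p = 0.530). It was 0.92 without week 0 replicate 1, 4.11 without week 0 replicate 2 and 0.22 with the slide row as a block. miR-133b-3p, a close relative of miR-133a-3p that may share signal with it, had 7.44 and 10.66 against 11.68, 11.88 and 10.99. The opposite arm miR-133a-5p was dim, at 3.09 and 4.72 against 6.31, 6.53 and 5.61, and on chow it had 3.21, 3.72 and 4.08. Its high fat minus chow difference at week 6 was 2.48 (SE 0.88, adjusted p = 0.193).

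miR-206-3p, a miRNA of skeletal muscle and not of heart (probe target at mm9 chromosome 1, 20669143 to 20669157, within the long noncoding RNA gene Lincmd1), had 3.09 and 4.43 at week 0 and 8.22, 8.13 and 5.68 on the high fat diet. The difference was 3.58 (SE 1.34, 95% confidence interval 0.76 to 6.40, adjusted p = 0.530), and it was 4.41 without high fat replicate 3 (adjusted p = 0.0837) and 0.99 with the slide row as a block. On chow it had 8.08, 7.74 and 10.50 at week 6, so the high fat values did not lie above those of chow. miR-499-3p, from an intron of the myosin gene Myh7b, was not well above background at week 0. It had 4.70, 5.24 and 3.09 on the high fat diet, with 2 of 3 arrays detected and replicate 3 at the floor. Part of the muscle signal thus stood highest on the high fat arrays (miR-1a-3p, miR-133a-5p) and part on a chow array (miR-206-3p). Whether the pieces of aorta differed in attached heart or skeletal muscle was not tested.

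The epithelial list separated the high fat arrays from each other. Of its 10 tested members 7 had a positive difference (background 75.7%), 0 passed the test and the median was 2.14. Wholly above week 0 lay 3 (background 12.5%), and wholly below it 1 (background 4.93%). The list's mean was 3.95 and 3.96 at week 0, 3.66, 6.81 and 5.07 on high fat replicates 1, 2 and 3, and 5.82, 5.99 and 6.44 on chow. High fat replicate 1 thus resembled week 0, and replicate 2 was higher than any chow array. With only miRNAs detected on all 5 arrays the list's median was -0.36, because 1 member remained, and it was 0.83 both without high fat replicate 2 and with the slide row as a block. It was 1.03 with normexp and 3.20 without high fat replicate 1.

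All 5 miR-200 family members followed this order. miR-200a-3p, which with its relatives holds down the repressors Zeb1 and Zeb2, was at the floor on both week 0 arrays and had 3.38, 8.45 and 5.39 on the high fat diet. Its mean was at least 3.84-fold higher than at week 0 (adjusted p = 0.540), but high fat replicate 1 was close to the floor. miR-141-3p, of the same seed but from another chromosome, had 3.14, 8.22 and 4.83, and miR-200b-3p of the other seed group had 3.52, 8.49 and 5.50. miR-200c-3p had 3.09, 7.68 and 4.88 and miR-429-3p 3.27, 7.71 and 5.16. The family was thus ordered alike over 2 seeds and 2 clusters, on mm9 chromosomes 4 and 6. Close relatives can also bind one another's probes, so their agreement is not that of separate measurements.

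miR-205-5p, of stratified epithelium, was not well above background at week 0 or on high fat replicate 1 and had 6.98 and 6.72 on replicates 2 and 3, against 7.69, 7.72 and 10.27 on chow. miR-34b-5p was bright on 1 array. It was at the floor at week 0, had 4.85, 10.03 and 4.98 on the high fat diet and 3.16, 3.40 and 3.11 on chow. Its high fat mean was at least 7.05-fold above week 0 (adjusted p = 0.530), although the fitted difference of 3.53 had an SE of 1.96. miR-449a-5p, of the same seed, was detected on 1 high fat array, replicate 2 (6.35), and was at the floor on the other high fat arrays and at week 0. miR-34a-5p, a relative under the control of p53 that is not specific to ciliated cells, gave no such pattern, at 6.98 and 7.93 against 6.63, 7.62 and 7.40. Other epithelial miRNAs differed less, with miR-203-3p at 6.75 and 6.33 against 5.70, 6.47 and 6.35.

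**Figure D4:**
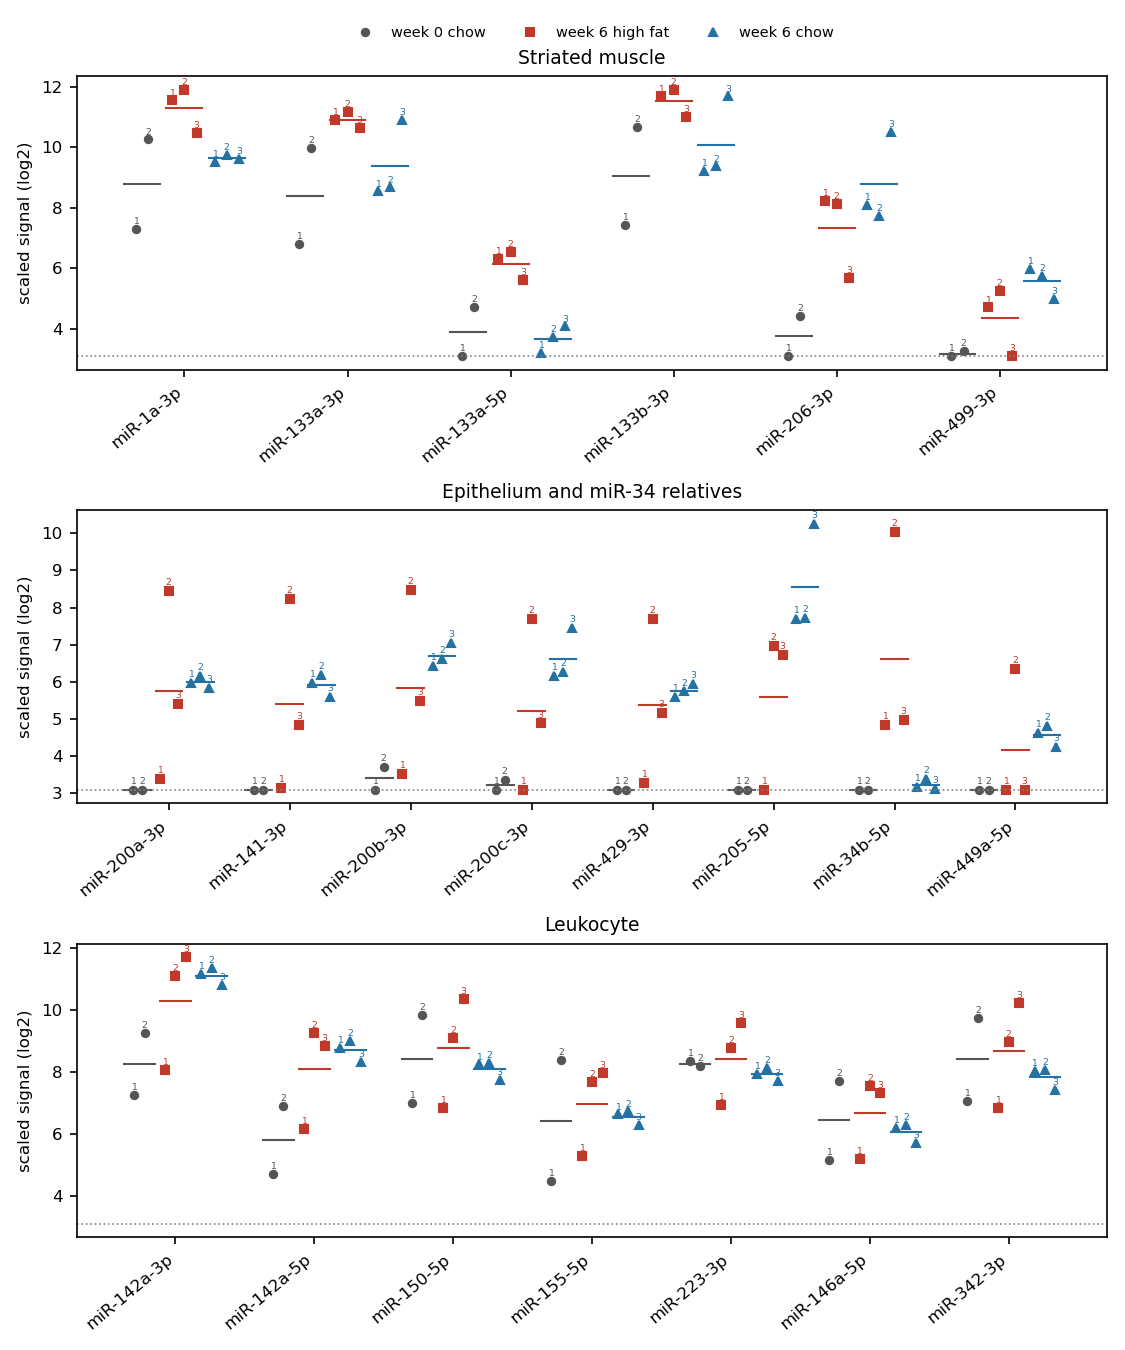
Log2 scaled signal on each array for striated muscle, epithelial and miR-34 related, and leukocyte miRNAs; small numerals are replicate numbers, bars are group means and the dotted line is the floor of 3.09. Muscle miRNAs were lowest or at the floor on week 0 replicate 1, miR-200 family members and miR-34b-5p were highest on high fat replicate 2, and leukocyte miRNAs other than miR-223-3p were low on week 0 replicate 1 and high fat replicate 1.

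The leukocyte list had 9 tested members of 11 on the array. All 9 had a positive difference (background 75.7%), and none had groups that did not overlap (background 12.5% higher and 4.93% lower). The list's median difference was 0.34 beside 0.49 over all tested miRNAs. With only miRNAs detected on all 5 arrays, 7 of them in the list, it was again 0.34, beside 0.19 over all 303. The list's median was -0.42 with the percentile over all miRNAs and -0.16 after quantile normalisation, and 0.90 with the slide row as a block. Leaving out 1 array gave 0.02 without week 0 replicate 1, 1.60 without week 0 replicate 2, 1.19 without high fat replicate 1, 0.12 without high fat replicate 2 and 0.06 without high fat replicate 3. The list's mean was 5.58 and 7.51 at week 0 and 5.71, 7.95 and 8.17 on the high fat diet. At week 6 on chow it was 7.19, 7.29 and 6.73. Week 0 and high fat thus each held a low array, week 0 replicate 1 and high fat replicate 1. The spread within each of these 2 groups was larger than the difference between them.

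miR-142a-5p, from a gene active in all blood-derived cells, had 4.70 and 6.90 at week 0 and 6.15, 9.24 and 8.84 on the high fat diet. The difference was 2.28 (SE 1.04, 95% confidence interval 0.08 to 4.47, adjusted p = 0.530), and at the same week chow had 8.78 and 8.33 on replicates 1 and 3, with replicate 2 slightly above them. Its partner miR-142a-3p had 7.26 and 9.25 against 8.05, 11.10 and 11.70, a difference of 2.03 (SE 1.13, adjusted p = 0.530). miR-155-5p, which macrophages make on activation, had 4.46 and 8.39 at week 0 and 5.28, 7.69 and 7.95 on the high fat diet. Its week 0 values enclosed all 3 high fat values, and the confidence interval of its difference of 0.55 ran from -1.71 to 2.81. miR-146a-5p, a feedback inhibitor of NF-kB signalling, had 5.16 and 7.72 against 5.17, 7.54 and 7.30. miR-150-5p of mature lymphocytes had 7.01 and 9.84 against 6.82, 9.10 and 10.36, with a difference of 0.34 and a confidence interval of -2.29 to 2.97. miR-223-3p, of neutrophils and monocytes, had 8.34 and 8.20 against 6.93, 8.77 and 9.58. Unlike miR-155-5p, miR-146a-5p and miR-150-5p it was level between the week 0 arrays, and its difference was 0.16 (SE 0.61, adjusted p = 0.949). The differences of miR-150-5p, miR-223-3p and miR-146a-5p took the opposite sign without high fat replicate 3, at -0.46, -0.42 and -0.08.

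The leading miRNAs of the artery wall itself, miR-145a-5p, miR-143-3p and miR-126a-3p, were bright on every array, and none of their differences passed the test. Smooth muscle miR-145a-5p, which with miR-143 keeps smooth muscle in its contractile state, had 9.18 and 8.98 at week 0 and 8.14, 8.55 and 8.50 on the high fat diet. All 3 high fat values were lower, with a difference of -0.68 (SE 0.38, adjusted p = 0.530), and chow gave 8.24, 8.17 and 8.25 at week 6. miR-143-3p had 10.81 and 10.27 against 9.90, 10.42 and 9.83, a difference of -0.49 with a confidence interval from -1.77 to 0.79. The list's 3 tested members had a median of -0.49, and it was 0.01 with the slide row as a block. Endothelial miR-126a-3p, from within Egfl7, had 12.36 and 11.68 against 11.50, 12.14 and 11.61, with overlapping groups and a difference of -0.28 (SE 0.67, adjusted p = 0.903). The partner arms miR-143-5p (4.07 to 4.78 on the 5 arrays) and miR-126a-5p (5.37 to 6.65) were dimmer. Defining markers of the labelled tissue were thus present on all 5 arrays.

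The list of miR-23, miR-24 and miR-27 holds the 3p arms of 2 paralogous clusters. All 5 of its tested members had negative differences (142 of 609 over all), with a median of -0.51. In 3 the groups did not overlap (background for lower 4.93%), and 0 passed the test. Outside the list, the 5p arm miR-24-2-5p had a difference of 0.13 and miR-23a-5p was at the floor on all 5 arrays. These miRNAs are abundant in endothelium and smooth muscle. miR-23b-3p had 10.49 and 10.50 at week 0 and 9.31, 10.15 and 9.86 on the high fat diet. The difference was -0.72 (SE 0.38, adjusted p = 0.530). miR-23a-3p had 11.26 and 11.19 against 10.36, 11.03 and 10.37, and miR-24-3p had 11.23 and 11.24 against 10.36, 11.12 and 10.69. On each of these 3 high fat replicate 2 was the highest of its group and nearest to week 0. The list's median was negative under all alternatives run, from -1.48 to -0.33. Its mean at week 6 on chow, 9.92 to 10.03, was near that on the high fat diet, 9.62 to 10.36.

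Other wall-associated lists stayed closer to 0 or depended on the array. miR-21a-5p, which accumulates in injured vessels, had 10.36 and 11.47 at week 0 and 10.17, 12.38 and 11.66 on the high fat diet, and its difference of 0.48 had a confidence interval from -1.37 to 2.33. The fibroblast list had a median of -0.07 over 5 members. miR-29a-3p, which limits collagen synthesis, had 11.96 and 12.30 against 11.15, 12.37 and 12.11. The let-7 family had 8 of 11 tested members negative, against 142 of 609 over all, and a median of -0.20. Its lowest mean was on high fat replicate 1 (8.95), against 9.47 and 9.63 at week 0. The families of miR-15, miR-16 and miR-195 (5 of 5 negative, median -0.36) and of miR-10, miR-99, miR-100 and miR-125 (6 of 7 negative, median -0.45) were likewise lowest on high fat replicate 1, at 8.43 and 7.63. Without that replicate the medians of the 3 families were 0.14, 0.16 and -0.04. Their mean levels at week 6 on chow were 9.83, 9.79 and 7.90, beside 9.49, 9.27 and 8.29 on the high fat diet.

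High fat replicate 1 thus had low values of many abundant families. It also detected the most miRNAs, and 54 miRNAs were detected on it and on none of the other 4 arrays. The 48 of them with a RefSeq sequence had a median of 59.1% G and C and 36.4% pyrimidine, against 54.5% and 42.9% in the 249 with a sequence among the 303 miRNAs detected on all 5 arrays. miR-494-3p of the Dlk1-Dio3 cluster had 13.87 on this array and 9.87 to 10.65 on the other 4.

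The adipose list had 8 tested members, 6 of them negative (142 of 609 over all), with 0 called and a median of -0.70. In 3 all high fat values lay below week 0 (background 4.93%). miR-193b-3p and miR-365-3p, which favour brown fat differentiation, were among them. Of the 2 genes of miR-365-3p, on mm9 chromosomes 16 and 11, only that on chromosome 16 lies beside the gene of miR-193b. The list's 2 positive members included miR-193a-3p, a relative of miR-193b-3p with a difference of 0.45. miR-193b-3p had 11.39 and 10.25 at week 0 and 9.68, 9.40 and 9.37 on the high fat diet, a difference of -1.34 (SE 0.79, adjusted p = 0.540). miR-365-3p had 9.72 and 9.08 against 8.33, 8.83 and 8.81. miR-378a-3p, from an intron of Ppargc1b, had 11.24 and 10.60 against 10.03, 10.17 and 10.19. miR-193b-3p, miR-365-3p and miR-378a-3p were all highest on week 0 replicate 1, the array on which muscle and leukocyte miRNAs were lowest. Without that array the list's median was -0.25. With the slide row as a block miR-365-3p had -0.33 and miR-378a-3p -0.40. Whether the pieces differed in attached fat was not tested.

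Blood, liver and nerve miRNAs completed the cell type lists. The red cell list had 4 tested members, 3 with negative differences, 1 wholly below week 0 (background 4.93%) and a median of -0.60. miR-451a, the main miRNA of red cells, had 12.80 and 12.12 at week 0 and 10.73, 11.75 and 12.11 on the high fat diet, with a difference of -0.93 (SE 0.81, adjusted p = 0.664), which was -0.38 with the slide row as a block. Its cluster partner miR-144-3p had 5.74 and 3.14 against 5.39, 7.16 and 4.75, a difference of 1.33. miR-122-5p, the marker of hepatocytes, was at the floor on all 5 arrays. Of 5 tested members of the neuron list 2 lay wholly above week 0 (background 12.5%) and 1 wholly below (background 4.93%). miR-138-5p was at the floor on both week 0 arrays and had 3.40, 4.15 and 5.77 on the high fat diet, at least 1.55-fold higher. miR-137-3p was likewise at the floor at week 0 and had 3.78, 4.46 and 5.41. Both were brightest on replicate 3, the array with the fewest detected miRNAs.

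Of the 2 large imprinted clusters, that of Dlk1-Dio3 on chromosome 12, which is expressed from the maternal chromosome, had 16 tested members, with 10 positive differences (62.5%, against 75.7% of all tested miRNAs), 3 wholly above week 0 (18.8%, against 12.5%) and a median of 0.25. It turned negative under 3 scalings, at -0.72 with the percentile over all miRNAs, -0.68 after quantile normalisation and -0.02 without scaling. miR-376c-3p, given above, stood far from the rest of it. Its near neighbour miR-376a-3p had 3.17 and 3.09 at week 0 and 3.14, 4.42 and 5.14 on the high fat diet, with its highest value on the replicate where miR-376c-3p was lowest.

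The miR-297, miR-466, miR-467 and miR-669 families of the Sfmbt2 intron, a rodent cluster expressed strongly in placenta and made of near-identical repeats, had 42 tested members. Positive differences were found in 39 (92.9%, against 75.7% of all tested miRNAs), 1 was negative and the median was 1.24. Groups that did not overlap were found in 0, against 12.5% higher and 4.93% lower over all. The list's mean was 4.73 and 4.46 at week 0, 6.10 and 6.88 on high fat replicates 1 and 2 and 3.97 on replicate 3, and 6.22 to 6.63 on chow. Replicate 3 lay below both week 0 arrays and the other high fat arrays lay with chow. miR-297a-3p, miR-669b-3p and miR-669d-3p showed this pattern, each at the floor at week 0 and on replicate 3 and between 4.31 and 5.79 on replicates 1 and 2. Since these members resemble one another, they do not count as separate measurements.

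The same split ran through the miRNAs numbered miR-6896 to miR-7119, most of which derive from short introns (mirtrons), whose 3p arms end at the splice acceptor and carry its run of pyrimidines. All 36 tested 3p arms had a positive difference (median 1.43), but only 4 had groups that did not overlap, a share near the background of 12.5%. Of the 36, 29 were detected on neither week 0 array and 1 on all 5 arrays. A miRNA at the floor at week 0 cannot have a negative difference, so their shared sign was largely set in advance. Their mean was 3.32 and 3.24 at week 0, 4.95, 5.80 and 3.28 on high fat replicates 1, 2 and 3, and 5.48 to 5.69 on chow. The 78 tested 5p arms had a median of 0.53, near that of all tested miRNAs. Of them 16 (20.5%) lay wholly above week 0 and 2 (2.56%) wholly below, against 12.5% and 4.93% of all. On slide 1 without replicate 3, 28 of the 36 3p arms of this range were among the 92 higher calls (15.1% of all tested miRNAs), and 3 of the 78 5p arms. The count of 28 is not separate support. The 3p arms were near the floor of 3.09 at week 0, where spread is lowered. That fit also left out the high fat array on which their mean was lowest (3.28).

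Detection differed with pyrimidine content. The 86 miRNAs detected on high fat replicates 1 and 2 but on neither week 0 array nor on replicate 3 had a median of 68.2% pyrimidine (72 with a sequence), against 42.9% for those detected on all 5 arrays. Among the 117 miRNAs richest in pyrimidine the median level was 3.67 and 3.19 at week 0, 5.11, 5.91 and 3.62 on the high fat diet and 5.50 to 5.95 on chow. In the 127 poorest in pyrimidine it was 4.83 and 4.79, then 5.78, 5.17 and 5.35, then 5.31 to 5.83. The part of sequence composition, of depth and of slide position in these differences was not tested. By contrast 9 of the 609 miRNAs were detected on all 3 high fat arrays and on neither week 0 array. They were miR-137-3p, miR-138-5p, miR-141-3p, miR-200a-3p, miR-3472, miR-3474, miR-34b-5p, miR-376a-3p and miR-376c-3p. Their median difference of 2.47 follows largely from this choice. Of the 9, miR-141-3p and miR-376a-3p were close to the floor on high fat replicate 1 (3.14). No miRNA was detected on both week 0 arrays and on 0 high fat arrays.

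**Figure D5:**
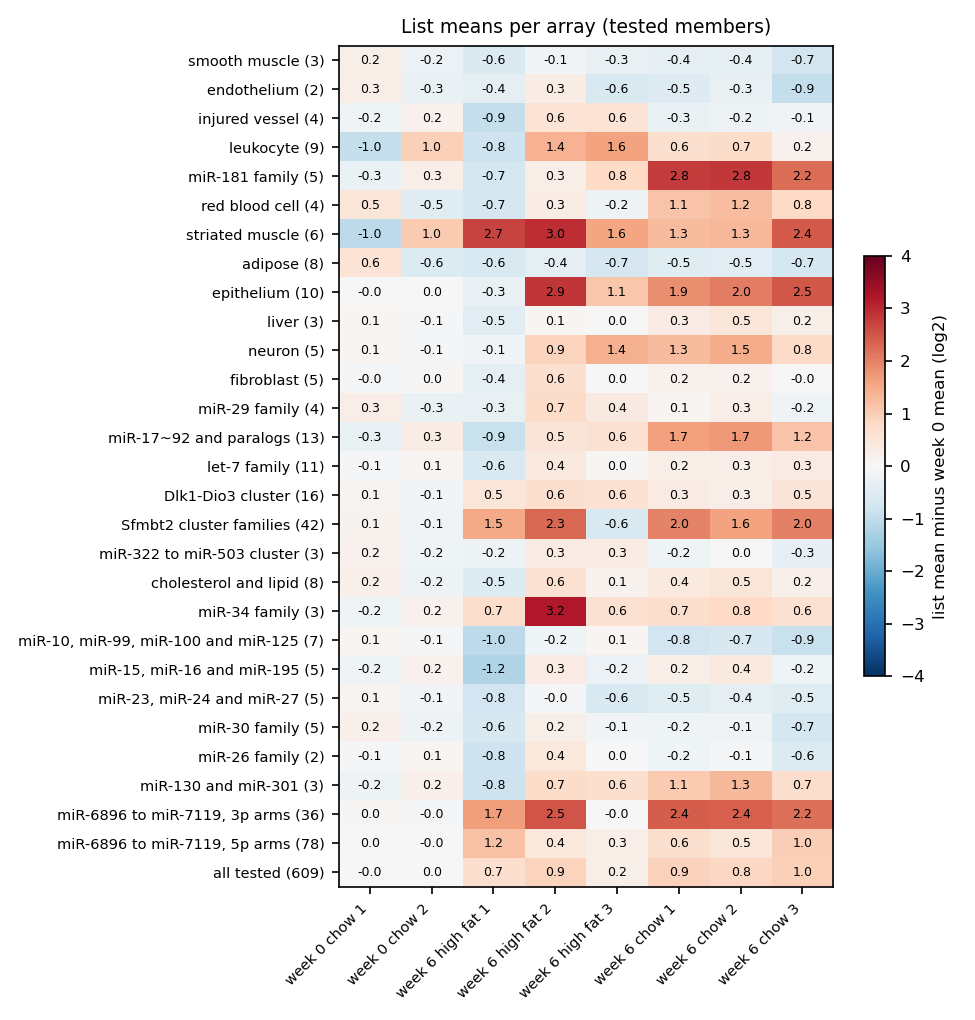
Mean log2 scaled signal of the tested members of each list (number in brackets) on each of the 8 arrays of weeks 0 and 6, minus the mean of the 2 week 0 arrays; colours and printed values show the same quantity. Striated muscle is above the week 0 mean on all 6 arrays of week 6, the epithelium list is high on high fat replicates 2 and 3 and on chow, and the Sfmbt2 and miR-6896 to miR-7119 3p lists are high on every week 6 array but high fat replicate 3.

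Week 6 on chow shares the week 0 arrays as its reference, so only the difference between the diets at week 6 was used to set the courses apart. That comparison called 18 of 609 miRNAs as lower on high fat (2.96%) and 0 as higher. Of the miRNAs named here 3 were among them. miR-128-3p, a miRNA of brain and of lymphocyte precursors, had 5.59 and 5.70 at week 0, 4.79, 6.48 and 6.09 on the high fat diet and 9.62, 9.79 and 9.06 on chow. Between week 0 and high fat it had a difference of 0.14 (SE 0.59, 95% confidence interval -1.09 to 1.38, adjusted p = 0.949). Its high fat minus chow difference was -3.70 (SE 0.52, adjusted p = 0.00027). miR-181b-5p had 5.23 and 5.80, then 4.91, 6.07 and 6.53, then 8.76, 8.68 and 8.09, and its high fat minus chow difference was -2.67 (SE 0.41, adjusted p = 0.00052). miR-181a-1-3p was detected on none of the 5 arrays and had 6.93, 7.05 and 6.29 on chow. Its high fat minus chow difference was -3.40 (SE 0.33, adjusted p = 6.8e-06). On chow these 3 miRNAs lay above both other groups on every array.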

How the data were processed

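Total RNA extracted with TRIZOL was labelled with Cy3 and hybridised to Agilent mouse miRNA arrays in 1 colour, per the labels' protocols. The submitters' processing notes name Agilent Feature Extraction, version 11.5.1. The authors deposited its linear spot intensities, which are background-subtracted but not scaled across arrays, per the file headers. Their value table repeats these intensities for all 20 arrays and has 0 unmatched columns. Probe positions refer to mm9.

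Control and outlier spots were left out, and the rest were averaged per probe and then per miRNA (4415 probes, 1881 miRNAs). Detection on an array required 1 probe with a share of 0.5 or more of its usable spots well above background. Signals were divided by the array's 75th percentile, taken over the 192 miRNAs found on every one of the 20 arrays, floored at 3.09 on the log2 scale (negative controls plus 3 SD) and log2-transformed. Floor values have no order and lower the SD.

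Limma 3.58.1 (R 4.3.3, lmFit and eBayes, 2-sided) was fitted to all 20 arrays in 7 groups (13 residual degrees of freedom), with Benjamini-Hochberg adjustment at 0.05 over the 609 miRNAs that all arrays of some group detected. The method was tested on simulated data drawn from normal distributions without a floor, so that test does not cover miRNAs at the floor. RefSeq sequences (GRCm38.p6) were matched by name for 496 of the 609 miRNAs. Host genes come from RefSeq gene positions of the same assembly.

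The members and the 26 lists were chosen with earlier results of these data known. Named miRNAs are the 5 with the smallest p per direction, since 0 passed, up to 3 per list by smallest p, and a fixed panel, of which miR-33-5p was not tested. Others named, such as miR-133b-3p, miR-449a-5p and miR-494-3p, were chosen after their values were seen. The number of arrays limits the precision. There were 21 planned and 3 added alternatives. Same-numbered arrays of the 2 groups did not pair: deviations correlated at 0.221 for number 1 and -0.0564 for number 2.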

Additional observations from a re-analysis of the deposited data

Results flagged for a closer look

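In 3 of the named miRNAs the difference between high fat and chow at week 6, which equals the difference of their changes from week 0, passed limma's test over all 609 miRNAs. The value was -3.70 for miR-128-3p, -2.67 for miR-181b-5p and -3.40 for miR-181a-1-3p on the log2 scale (n = 3 a diet). All 3 high fat values lay below all 3 chow values in each. With normexp background correction 1 of the 3 passed, and with the slide row as a block or with scaling to the labelling spike-ins 0 passed. Chow replicates 1 and 2 were nearly identical arrays, so the chow group may hold fewer than 3 separate samples. With the slide row as a block the comparison sets high fat against chow replicate 3 alone.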

How the results depend on the processing

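The count of called miRNAs was 0 under 22 of the 24 alternatives, with 3 to 134 miRNAs at an unadjusted p under 0.05. It was 99 without the 4 arrays with the fewest detected miRNAs and 93 on slide 1 without high fat replicate 3, an alternative chosen, like the spike-in scaling and the higher floor, after seeing the data. Leaving out 1 array at a time gave 0 calls each time, and where 1 week 0 array remains it is assumed to vary like the other groups. With the replicate block 0 miRNAs were called and 71 had an unadjusted p under 0.05, and it changed no call. The median difference over all miRNAs was -0.30 with the 75th percentile over all miRNAs, -0.13 after quantile normalisation and 0 with no filter. Of the 3 named miRNAs that differed between the diets, 1 passed with normexp and 0 with the slide row as a block or with spike-in scaling. The cause was not tested.

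Signs of single miRNAs turned as follows, and none of these differences was called. With the percentile over all miRNAs the differences were -0.42 for miR-155-5p, -0.63 for miR-150-5p, -0.81 for miR-223-3p, -0.74 for miR-146a-5p, -0.82 for miR-128-3p, -0.64 for miR-181b-5p, -0.13 for miR-181a-1-3p and -0.49 for miR-21a-5p. Without scaling they were -0.11 for miR-223-3p, -0.038 for miR-146a-5p, -0.13 for miR-128-3p and -0.017 for miR-181a-1-3p. After quantile normalisation they were -0.15 for miR-155-5p, -0.11 for miR-150-5p, -0.25 for miR-223-3p, -0.41 for miR-146a-5p, -0.69 for miR-128-3p, -0.49 for miR-181b-5p and -0.27 for miR-181a-1-3p. With normexp miR-28c had 0.035. With the slide row as a block miR-143-3p had 0.0083, miR-126a-3p 0.30 and miR-29a-3p 0.049. With array weights miR-150-5p had -0.054, miR-223-3p -0.13 and miR-146a-5p -0.00039. Without the 4 arrays, and likewise on slide 1 without high fat replicate 3, miR-150-5p had -0.46, miR-223-3p -0.42, miR-146a-5p -0.084, miR-128-3p -0.0073, miR-181b-5p -0.023 and miR-181a-1-3p -0.0034. Leaving out 1 array at a time gave ranges of -1.41 to 2.51 for miR-155-5p, -1.07 to 1.76 for miR-150-5p, -1.05 to 1.51 for miR-146a-5p, -0.42 to 0.91 for miR-223-3p, -0.073 to 1.10 for miR-21a-5p, -0.61 to 0.063 for miR-126a-3p, -0.71 to 0.24 for miR-34a-5p, -0.50 to 0.11 for miR-29a-3p, -0.20 to 0.64 for miR-128-3p, -0.023 to 0.79 for miR-181b-5p and -0.0034 to 0.37 for miR-181a-1-3p. The week 0 group of 2 arrays and the dim high fat replicate 3 limit what can be called.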
